A study of Mus musculus with 15 samples.

Results

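Glutathione S-transferases join the thiol of glutathione to electrophilic compounds, and 10 of their genes were followed here in a mouse dendritic cell line exposed to dinitrofluorobenzene (DNFB), a contact allergen whose relatives are classical substrates of these enzymes. The genes were taken by name and not by their values: Gsta4 of the alpha class, Gstm1 and Gstm5 of the mu class, Gstp1 of the pi class, Gsto1 of the omega class, Gstt1 and Gstt2 of the theta class, and the membrane-bound Mgst1, Mgst2 and Mgst3. They were measured by 16 probe sets, a probe set being the group of short oligonucleotides on an array that reads one transcript. Of these, 12 probe sets in 8 genes had signal in at least 1 group, meaning a group mean of log2(signal + 15) at or above 6.22, the 40th percentile of the array. With the same limit on the mean over all 15 arrays, 11 probe sets in 7 of the 10 genes entered the test, out of 12701 genes tested.

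The cells came from the epidermis of newborn mice of the A/J background, and their RNA was measured on 15 expression arrays, 3 in each of 5 groups. The groups were cells left non-treated, cells given DNFB, cells given hydrogen peroxide (H2O2), cells given diphenyl iodonium (DPI), which blocks flavoenzymes such as NADPH oxidase and with them a source of reactive oxygen species, and cells given DPI together with DNFB. Genotype and line were shared by every group, doses and times are not given in the sources used here, and the labels call the controls non-treated where the text of the series speaks of vehicle. Whether the 3 arrays of a group stand for separate cultures is not given, so the p-values reflect the scatter of these arrays alone, and that scatter may be technical.

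Conjugation is the step by which a cell removes a reactive compound once glutathione is at hand. The supply of glutathione depends on cystine uptake by the transporter built from Slc7a11 and Slc3a2 and on glutamate-cysteine ligase, whose subunits are encoded by Gclc and Gclm. Conjugates leave the cell through pumps such as Abcc1. Dinitrohalobenzenes are turned over chiefly by the alpha, mu and pi classes. Gsta4 prefers the lipid aldehyde hydroxynonenal, Gsto1 acts mainly as a thioltransferase and dehydroascorbate reductase, the theta class is known for little activity toward chlorodinitrobenzene, and Mgst2 and Mgst3 also act on lipid hydroperoxides and leukotriene A4. Many transferase and glutathione genes are known targets of NRF2, the factor encoded by Nfe2l2 that binds antioxidant response elements. Enzyme activity was not measured here.

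The bases upstream of Gstp1, Gsto1 and Mgst3 are shown because these members passed a test, and those of Gstm5 because its window held the core of an antioxidant response element. RefSeq windows of 250 bases before the transcription start were found for 8 of the 10 members, in GRCm38.p6. Capitals mark matches to TGACNNNGC (the core of an antioxidant response element), TGANTCA (the AP-1 motif) and TGANTCAGC, which contains the AP-1 motif and was chosen after the sequences were seen. Both strands were searched. Each sequence is read 5′ to 3′ on the strand of its gene. Srxn1, which encodes sulfiredoxin, is shown as a gene of the NRF2 response to set beside them.
Gstp1, chr19:4037913-4038162, minus strand: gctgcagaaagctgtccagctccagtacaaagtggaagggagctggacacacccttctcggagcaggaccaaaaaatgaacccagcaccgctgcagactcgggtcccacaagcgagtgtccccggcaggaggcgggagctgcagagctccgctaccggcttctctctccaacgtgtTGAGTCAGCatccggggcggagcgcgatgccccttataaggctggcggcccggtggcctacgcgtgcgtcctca
Gsto1, chr19:47854723-47854972, plus strand: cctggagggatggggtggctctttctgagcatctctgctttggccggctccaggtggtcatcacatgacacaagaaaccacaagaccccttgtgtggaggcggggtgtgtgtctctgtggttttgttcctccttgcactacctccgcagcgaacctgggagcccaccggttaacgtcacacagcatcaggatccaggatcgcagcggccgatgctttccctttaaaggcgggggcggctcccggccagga
Mgst3, chr1:167393842-167394091, minus strand: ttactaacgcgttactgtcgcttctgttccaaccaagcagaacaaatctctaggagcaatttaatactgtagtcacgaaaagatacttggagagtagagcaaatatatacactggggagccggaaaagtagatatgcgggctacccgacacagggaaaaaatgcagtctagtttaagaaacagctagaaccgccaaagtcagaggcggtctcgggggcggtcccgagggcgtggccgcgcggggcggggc
Gstm5, chr3:107895604-107895853, plus strand: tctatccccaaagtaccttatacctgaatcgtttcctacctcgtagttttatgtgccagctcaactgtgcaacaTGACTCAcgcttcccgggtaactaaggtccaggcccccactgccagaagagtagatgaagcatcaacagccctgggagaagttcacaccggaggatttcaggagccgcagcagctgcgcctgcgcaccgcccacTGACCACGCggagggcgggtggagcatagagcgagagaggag
Srxn1, chr2:152105274-152105523, plus strand: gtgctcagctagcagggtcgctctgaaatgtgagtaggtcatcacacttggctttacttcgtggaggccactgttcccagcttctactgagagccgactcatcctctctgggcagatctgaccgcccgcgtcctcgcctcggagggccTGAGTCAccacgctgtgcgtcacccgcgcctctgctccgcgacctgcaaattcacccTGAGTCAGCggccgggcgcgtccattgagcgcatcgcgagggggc
The Gstp1 window held TGAGTCAGC with its first base 74 bases before the start, and no match to TGACNNNGC. TGAGTCAGC differs from that pattern only in having G in place of C after TGA. A core pattern that allows G there was not searched, so the absence holds for TGACNNNGC alone. The Srxn1 window held TGAGTCAGC at 45 bases and a further TGAGTCA at 102 bases before the start. The Gstm5 window held TGACCACGC at 42 bases and TGACTCA at 176 bases, while the Gsto1 and Mgst3 windows held none of the 3 motifs. TGACNNNGC occurred in 10.2% of all 32851 windows of this length, TGANTCA in 6.7% and TGANTCAGC in 1.0%. Among the members with a window, 2 of 8 genes held TGACNNNGC, namely Gstm5 and Mgst1. In the list of NRF2-response and quinone-reducing genes 6 of 16 held it. Those 6 were Maff, Mafg, Mafk and Nfe2l2, which encode transcription factors, and the enzyme genes Prdx1 and Txnrd1. A gene counted if any of its windows matched, and some genes had several windows. These gene counts are therefore not on the scale of the window shares. Gstp1 and Srxn1 thus shared TGAGTCAGC in this window, although Gstp1 fell and Srxn1 rose with DNFB (values are given with the tests). A match describes letters only, and binding of any factor was not measured.

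**Figure D1:**
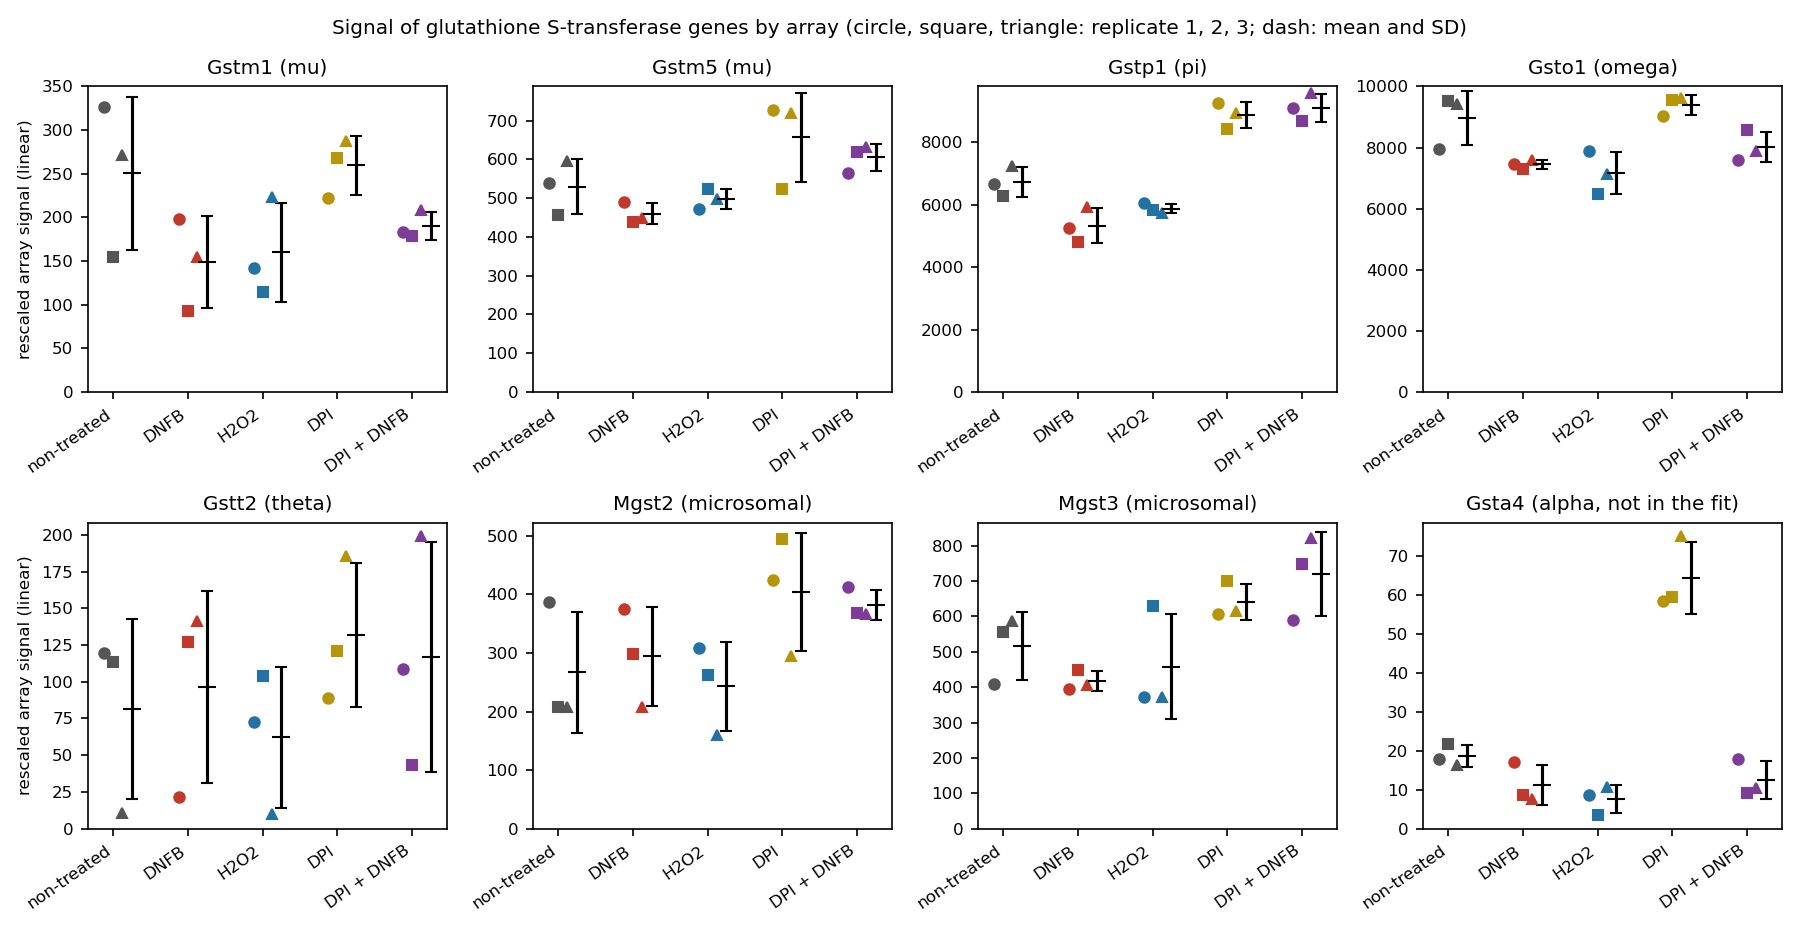
Signal of the 8 member genes with signal in at least 1 group, on the linear scale after every array was rescaled to a trimmed mean of 500. Each point is an array, and bars show the mean and SD of the 3 arrays of a group. Gstp1 lay highest on the 6 arrays given DPI with or without DNFB, and Gsta4 was raised only on the 3 DPI arrays.

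Gstp1, the pi-class enzyme, changed the most clearly among the members. Its signal was 6685, 6270 and 7249 on the non-treated arrays and 5268, 4803 and 5930 on the DNFB arrays, so that every DNFB array lay below every non-treated array. With H2O2 the signals were 6054, 5839 and 5755. They were 9269, 8421 and 8957 with DPI, and 9097, 8678 and 9571 with DPI + DNFB. The 6 arrays with DPI thus lay above the other 9 without overlap, and the DPI and DPI + DNFB groups overlapped, although DPI + DNFB replicate 3 lay above every DPI array.

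DNFB lowered Gstp1 1.26-fold against non-treated cells, from 6734 ± 491.2 to 5334 ± 565.9 (SD, n = 3 each). The log2 difference was -0.34 with an SE of 0.10, a 95% interval from -0.54 to -0.13, and a limma Benjamini-Hochberg adjusted p of 0.0151. In this comparison 24.4% of the 12701 genes passed the test at an adjusted p below 0.05, 13.9% in the lower direction, and of the 7 members 1 fell and 0 rose. The median log2 difference was -0.26 for those 7 members and -0.055 for all genes. The call ended without non-treated replicate 3 (log2 difference -0.28, limma adjusted p = 0.083) and without DNFB replicate 2 (-0.27, adjusted p = 0.0933). It also ended with each array centred on its median (-0.32, adjusted p = 0.0534). The arrays were deposited at 2 scaling targets, the lower one holding 2 DNFB arrays and 1 array of every other group, and the higher one 1 DNFB array and 2 of every other group. Values within a target therefore often rest on a single array in a group and are given without a test. For Gstp1 with DNFB they were -0.26 at the lower and -0.49 at the higher target.

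DPI raised Gstp1 1.32-fold, to 8883 ± 429.0 (SD, n = 3), with a log2 difference of 0.40 ± 0.10 (SE), an interval from 0.19 to 0.61 and a limma adjusted p of 0.00393. It was the 1 member of 7 that passed, where 31.8% of all genes passed and 13.3% were higher. The median log2 difference was 0.32 over the 7 members and -0.007 over all genes, and the difference was positive for 7 of 7. Within the lower and the higher scaling target the Gstp1 difference was 0.47 and 0.36. The DNFB, H2O2 and DPI comparisons share the 3 non-treated arrays, so their values are not independent of each other.

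The widest difference in Gstp1 was between the 2 groups that received DNFB. Gstp1 was 1.71-fold higher in DPI + DNFB (9115 ± 446.7) than in DNFB alone, with a log2 difference of 0.78 ± 0.10 (SE), an interval from 0.57 to 0.98 and a limma adjusted p of 2.92e-06. Of the 7 members, 2 were higher and 0 lower, against 44.2% of all genes called and 22.9% called higher. The median log2 difference was 0.38 over the members and 0.101 over all genes. Within the lower and the higher scaling target the Gstp1 difference was 0.70 and 0.92. Centring on the median gave 0.50 (adjusted p = 0.00111), a shift of over 1.5 times that came with a median of all genes of -0.173 in place of 0.101.

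The DPI + DNFB arrays stood apart in RNA quality and in marker level. The ratio of 3′ to 5′ signal of beta-actin, higher where RNA is degraded, was 2.07, 1.5 and 2.29 on these arrays and 1.19 to 1.53 on the other 12. With this ratio as a covariate the Gstp1 difference from DNFB alone was 0.78 (limma adjusted p = 0.00102). With replicate 2 as the only DPI + DNFB array it was 0.71, a value from 1 array in that group. The actin ratio of replicate 2 lay within the range of the other 12 arrays, but its Gapdh ratio lay above theirs. This 3′ to 5′ ratio was 1.09, 0.95 and 1.27 on the DPI + DNFB arrays and 0.81 to 0.92 on the others. With the actin ratio as a covariate 2904 of 12701 genes were called in DPI + DNFB against DNFB, in place of 5617. Both ratios and the group go together on these arrays, so their parts cannot be told apart. All 18 listed dendritic cell markers had signal past the filter, and their summed signal was 197900 to 224900 on the DPI + DNFB arrays and 155000 to 186900 on the others. A few bright genes such as Cd74 weigh most in that sum, and against DNFB 8 of the 18 were higher in DPI + DNFB and 4 lower, the latter being Cd207, Csf2rb, Cd86 and Itgax. Cd207, the langerin gene of Langerhans cells, read 990.7 ± 84.8 with DNFB, 135.4 ± 76.0 in non-treated cells and 37.1 ± 16.7 with DPI + DNFB (SD, n = 3 each). Past the filter were 4 of 12 keratinocyte, 4 of 10 fibroblast, 3 of 6 melanocyte, 1 of 6 T cell and 1 of 6 mast cell markers. In these bulk samples fewer cells of a type and less RNA per cell cannot be told apart, and the part of marker level in the results was not tested. Replicate arrays of a group correlated at r = 0.946 to 0.973 across the genes tested, which are not independent of each other.

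Ordered by mean signal, Gstp1 ran from DNFB (5334) through H2O2 (5882 ± 154.2) and non-treated (6734) to DPI (8883) and DPI + DNFB (9115). DNFB and H2O2 did not differ past the threshold (log2 difference -0.15, interval -0.35 to 0.06, limma adjusted p = 0.375), nor did H2O2 and non-treated (-0.19, interval -0.40 to 0.01, adjusted p = 0.162). DPI + DNFB and DPI differed by 0.04 (interval -0.17 to 0.24, adjusted p = 0.82). The step from non-treated to DPI was the one between neighbours that passed. Mouse Gstp2, a near-identical copy of Gstp1, had no probe set of its own in the annotation used, so the Gstp1 signal may come from both.

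The response of Gstp1 to DNFB differed with DPI present. DNFB lowered it by 0.34 on the log2 scale without DPI and left a difference of 0.04 with DPI, and the difference of those effects was 0.38 ± 0.14 (SE), with an interval from 0.08 to 0.67 and a limma adjusted p of 0.0464. Of the 7 members it was the 1 called, where 31.1% of all genes were called and 17.3% in the positive direction. The median of this difference was 0.09 over the members and 0.139 over all genes. Whether a shift common to many genes enters the Gstp1 value was not tested. The call was lost under 22 of 34 alternatives, among them 11 of the 15 that left out 1 array, and over all 34 the value stayed positive, between 0.10 and 0.71. The lowest value came with each array centred on its median, where the median over all genes was -0.136 in place of 0.139.

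**Figure D2:**
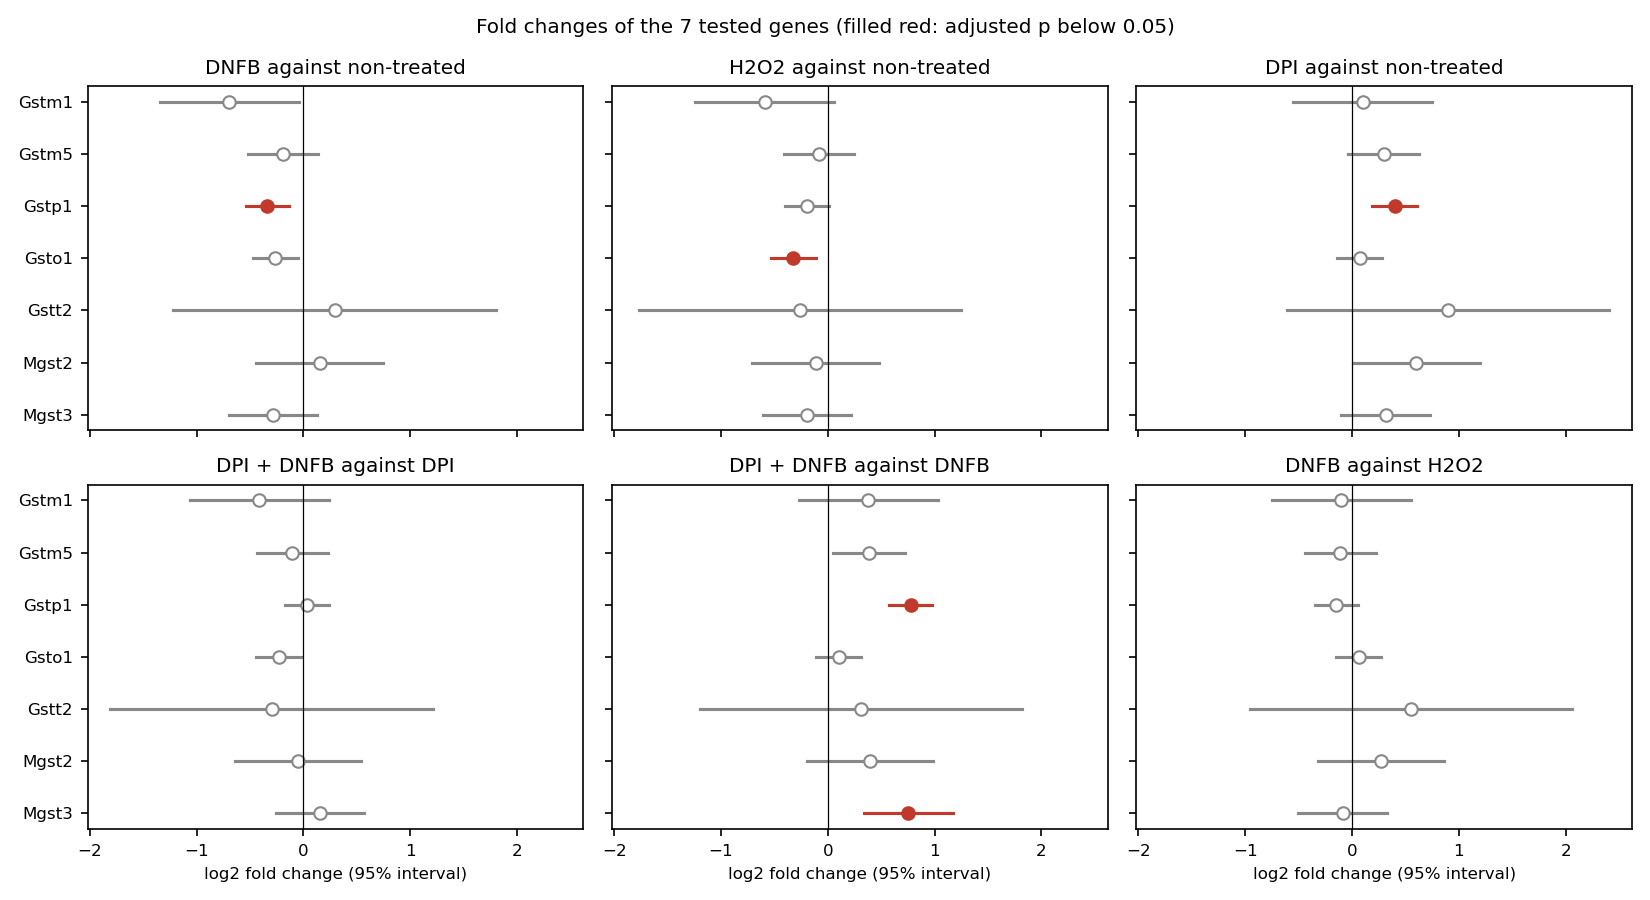
Log2 differences of the 7 tested members in 6 comparisons, with 95% intervals from the limma fit over all 12701 genes. Filled red points passed at an adjusted p below 0.05: Gstp1 in 3 of the comparisons, Gsto1 with H2O2, and Mgst3 in DPI + DNFB against DNFB. Intervals of Gstt2 are the widest.

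Mgst3, a membrane-bound enzyme with glutathione peroxidase activity, was higher in DPI + DNFB than in DNFB. Its signal was 395.0, 448.9 and 406.4 on the DNFB arrays and 588.9, 747.9 and 823.0 on the DPI + DNFB arrays, with no overlap. The difference was 1.69-fold, or 0.76 ± 0.20 (SE) on the log2 scale, with an interval from 0.34 to 1.17 and a limma adjusted p of 0.00429. Non-treated arrays read 407.6, 555.9 and 586.7 and DPI arrays 606.1, 700.7 and 616.4, so the DPI arrays also lay above the non-treated ones. That smaller difference of 0.32 ± 0.20 did not pass (limma adjusted p = 0.256), nor did the fall of the mean with DNFB (-0.29 ± 0.20, adjusted p = 0.351). H2O2 arrays read 372.6, 629.1 and 371.7 and spread over the range of both other groups. The call in DPI + DNFB against DNFB ended with the actin ratio as a covariate (0.77, adjusted p = 0.0845) and with median centring (0.48, adjusted p = 0.0945). Within the lower and the higher scaling target the difference was 0.54 and 0.79. The other Mgst3 probe set was below the signal limit in every group, with 1 array, DPI + DNFB replicate 3, at 131.4 and the other 14 at or below 23.7.

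Mgst2, which can make leukotriene C4 as well as conjugates, passed in none of the 7 comparisons. Its signal was 386.8, 207.1 and 207.2 in non-treated cells, 375.4, 299.1 and 207.9 with DNFB, and 307.9, 262.9 and 159.2 with H2O2. DPI arrays read 424.5, 494.2 and 295.4 and DPI + DNFB arrays 412.2, 368.3 and 367.1. The DPI group overlapped the non-treated group through replicate 1 of the latter. The log2 difference of DPI from non-treated was 0.60 ± 0.28 (SE), with an interval from 0.01 to 1.20 and a limma adjusted p of 0.117. Without non-treated replicate 1 it was 0.89 and passed (adjusted p = 0.0287). Its difference with DNFB was 0.15 (interval -0.44 to 0.75).

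Gsto1, the omega-class thioltransferase, was read by 2 probe sets that differed in part. The probe set used in the test, whose name ends in x_at, gave 7956, 9535 and 9408 in non-treated cells and 7878, 6484 and 7142 with H2O2. H2O2 lowered it 1.25-fold, with a log2 difference of -0.32 ± 0.10 (SE), an interval from -0.53 to -0.11 and a limma adjusted p of 0.0208. It was the 1 member of 7 called, where 28.3% of all genes were called and 17.4% were lower, and the median log2 difference was -0.20 over the members and -0.065 over all genes. The call ended without non-treated replicate 2 (adjusted p = 0.0943) or 3 (0.086) and without H2O2 replicate 2 (0.108) or 3 (0.0529), all by limma. At the lower scaling target, with 1 array in each group, the difference was -0.01, and at the higher one, with 2 in each, it was -0.48. With DNFB the signals were 7476, 7292 and 7592, all below the non-treated arrays, and the difference of -0.26 ± 0.10 did not pass (limma adjusted p = 0.0658).

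The second Gsto1 probe set was called under DPI where the first was not. It read 4836, 4608 and 4495 in non-treated cells, 5769, 5894 and 5834 with DPI, and 3299, 3795 and 4033 with DPI + DNFB. In a limma fit over all 27022 probe sets past the filter it was 1.26-fold higher with DPI (log2 difference 0.33 ± 0.12, adjusted p = 0.0465) and 1.58-fold lower in DPI + DNFB than in DPI (-0.66 ± 0.12, adjusted p = 0.000568). The first probe set read 9021, 9541 and 9624 with DPI and 7603, 8566 and 7872 with DPI + DNFB, with no overlap between them. Its differences in the same fit were 0.07 (adjusted p = 0.679) and -0.23 (adjusted p = 0.115). With H2O2 the roles were the other way round, since the second probe set had a difference of -0.18 (adjusted p = 0.309). Probe sets whose name ends in x_at can bind further transcripts, and no test of which one follows Gsto1 was made.

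The mu-class members Gstm1 and Gstm5, whose enzymes conjugate dinitrohalobenzenes readily, passed in none of the 7 comparisons. Gstm5 read 538.3, 455.4 and 595.3 in non-treated cells and 491.3, 439.6 and 449.0 with DNFB, overlapping groups with a log2 difference of -0.19 (interval -0.52 to 0.14, limma adjusted p = 0.446). With H2O2 it read 472.5, 524.6 and 498.5. DPI gave 727.9, 524.2 and 718.9 and DPI + DNFB 565.0, 618.8 and 631.4, each above every DNFB array. The difference between DPI + DNFB and DNFB was 0.39 ± 0.16 (interval 0.05 to 0.72), with a limma adjusted p of 0.0557. It passed under 7 of the 34 alternatives, with adjusted p from 0.0306 under cyclic loess to 0.0463 with the replicate number as a block. Gstm1 read 325.6, 154.5 and 271.3 in non-treated cells and 198.2, 93.2 and 154.6 with DNFB, a difference of -0.69 ± 0.31 (interval -1.34 to -0.04, adjusted p = 0.119) between groups that overlapped.

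Gstm1 had 4 probe sets past the filter, and they did not move together. With H2O2 the log2 differences from non-treated cells were -0.59 and -0.54 on 2 of them and 0.23 and 0.43 on the other 2. One of them was called higher in DPI + DNFB than in DNFB in the fit over probe sets (1.52 ± 0.55, limma adjusted p = 0.0345). Its DNFB arrays read 17.7, 16.2 and 100.2 and its DPI + DNFB arrays 115.1, 66.7 and 246.2, so the groups overlapped despite the call. The mu-class genes are close in sequence, and probe sets of this kind may bind several of them.

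The theta-class members Gstt1 and Gstt2 gave little. Gstt2 entered the test with signals from 9.65 to 199.1, with 1 array at 10.4 in the non-treated group and 1 at 9.65 in the H2O2 group. Its log2 difference with DNFB was 0.29 ± 0.72 (interval -1.22 to 1.80), and none of its 7 comparisons passed. Gstt1 ranged from 3.98 to 87.1 over the arrays, and its highest group mean, 5.76 on the log2 scale, was below the limit of 6.22. Mgst1, a microsomal conjugating enzyme of liver, also lay below the limit on both of its probe sets, with highest group means of 6.04 and 5.02. A signal below the limit does not show that a transcript is absent.

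Gsta4, the alpha-class enzyme that acts on hydroxynonenal, had signal only with DPI. It read 58.5, 59.5 and 75.1 on the DPI arrays and between 3.59 and 21.6 on the other 12, with DPI + DNFB at 17.9, 9.04 and 10.5. DPI lay above every other group without overlap, and arrays given DNFB as well were back at the level of the rest. Its highest group mean was 6.30, just inside the limit, and its mean over all arrays of 5.06 kept it out of the main test. Because it had signal through the DPI group alone, these values are a description, and no fold or test is given. Mgst1 and Gstt1 passed in none of the 7 comparisons of a limma fit without a filter, over 18193 genes.

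No tested member passed when DNFB was added to DPI. By limma 0 of 7 were called, against 27.8% of all genes (14.1% higher and 13.7% lower), and 1 of 7 had an unadjusted p below 0.05, which was Gsto1 (-0.23 ± 0.10, adjusted p = 0.0973). The median log2 difference was -0.10 over the members and 0.08 over all genes. With the actin ratio as a covariate 541 of 12701 genes were called here, in place of 3530. DNFB against H2O2 likewise gave 0 of 7 by limma, against 14.7% of all genes (8.75% higher and 6% lower), with 0 of 7 at an unadjusted p below 0.05. Intervals were wide enough there to hold differences of the size seen elsewhere, from -0.35 to 0.06 for Gstp1.

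Few other transferases and relatives passed with DNFB, H2O2 or DPI, at shares near those of all genes. Of 21 listed genes of this kind 11 were tested, and with DNFB 0 rose and 2 fell: Ltc4s, leukotriene C4 synthase (-0.65, limma adjusted p = 0.0212), and Gstcd, a protein with a transferase-like domain (-0.53, adjusted p = 0.00613), where 13.9% of all genes fell. With H2O2, 0 rose and 2 fell, Gstt3 of the theta class (-1.35, adjusted p = 0.00683) and Gstcd (-1.0, adjusted p = 1.19e-05), against 17.4% of all genes that fell. With DPI, 0 rose and 2 fell, Gstcd (-0.94, adjusted p = 2.07e-05) and Hpgds, the prostaglandin D synthase (-0.89, adjusted p = 0.00311), against 18.4%. Between DPI + DNFB and DNFB, 2 were higher and 1 lower, against 22.9% and 21.3% of all genes.

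Most genes in a list of glutathione supply and breakdown rose with DNFB. Chac1 and Ggct are among those listed for breakdown, so the counts and the median mix both functions. Of 13 listed genes 11 were tested, 8 rose and 1 fell, where 10.5% of all genes rose and 13.9% fell, and their median log2 difference was 0.83 against -0.055 for all genes. Gclc rose 2.34-fold, from 2137 ± 164.3 to 5010 ± 181.5 (SD, n = 3 each), and Gclm 2.16-fold (limma adjusted p of 7.54e-07 and 8.6e-06). Slc7a11, the cystine transporter, rose 3.82-fold, and Chac1, which degrades glutathione, 3.96-fold (adjusted p of 1.35e-05 and 1.3e-05). Ggct, a gamma-glutamylcyclotransferase, fell 1.58-fold (adjusted p = 0.00593). H2O2 raised 5 of the 11 and lowered 1, where 10.9% of all genes rose and 17.4% fell. Against H2O2, DNFB had 5 higher and 0 lower, against 8.75% and 6% of all genes, with Gclm 1.93-fold higher (adjusted p = 0.000163).

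With DPI part of that list moved the other way. DPI raised 3 and lowered 2 of the 11, with Gclm 2.31-fold lower (limma adjusted p = 2.74e-06) and Slc7a11 1.85-fold lower (adjusted p = 0.013), while Gclc rose 1.67-fold (adjusted p = 0.000189) and Cth, which makes cysteine, 5.39-fold (adjusted p = 6.54e-08). With DPI 13.3% of all genes rose and 18.4% fell. In DPI + DNFB against DNFB, 6 of the list were lower and 2 higher, with a median of -0.49, against 21.3% and 22.9% of all genes. Gclm was 5.40-fold lower there (adjusted p = 2.02e-10) and Gclc 4.26-fold lower (adjusted p = 3.7e-10), the same comparison in which Gstp1 was 1.71-fold higher. The interaction was negative for 7 of the 11 and positive for 1, with -2.83 for Gclc and -1.37 for Slc7a11 on the log2 scale. Of all genes 13.8% were called negative and 17.3% positive.

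Most NRF2-response and quinone-reducing genes also rose with DNFB. Of 17 listed genes 15 were tested, and DNFB raised 9 and lowered 0, with a median of 1.04 on the log2 scale. Of all genes 10.5% rose and 13.9% fell. Hmox1, heme oxygenase 1, rose 10.04-fold and Srxn1 9.0-fold, from 1536 ± 81.9 to 13940 ± 507.4 (SD, n = 3 each), with limma adjusted p of 3.31e-08 and 1.29e-12. Nqo1, the quinone reductase often read as an NRF2 target, did not pass (log2 difference 1.04, adjusted p = 0.193). H2O2 raised 9 and lowered 0, where 10.9% of all genes rose and 17.4% fell. DPI raised 4 and lowered 3, where 13.3% of all genes rose and 18.4% fell. In DPI + DNFB against DNFB 9 were lower and 2 higher, against 21.3% and 22.9% of all genes. The interaction was negative for 9 of the 15 and positive for 0, against 13.8% and 17.3% of all genes. These lists were chosen with results of these data known, so their counts describe them and do not test them.

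**Figure D3:**
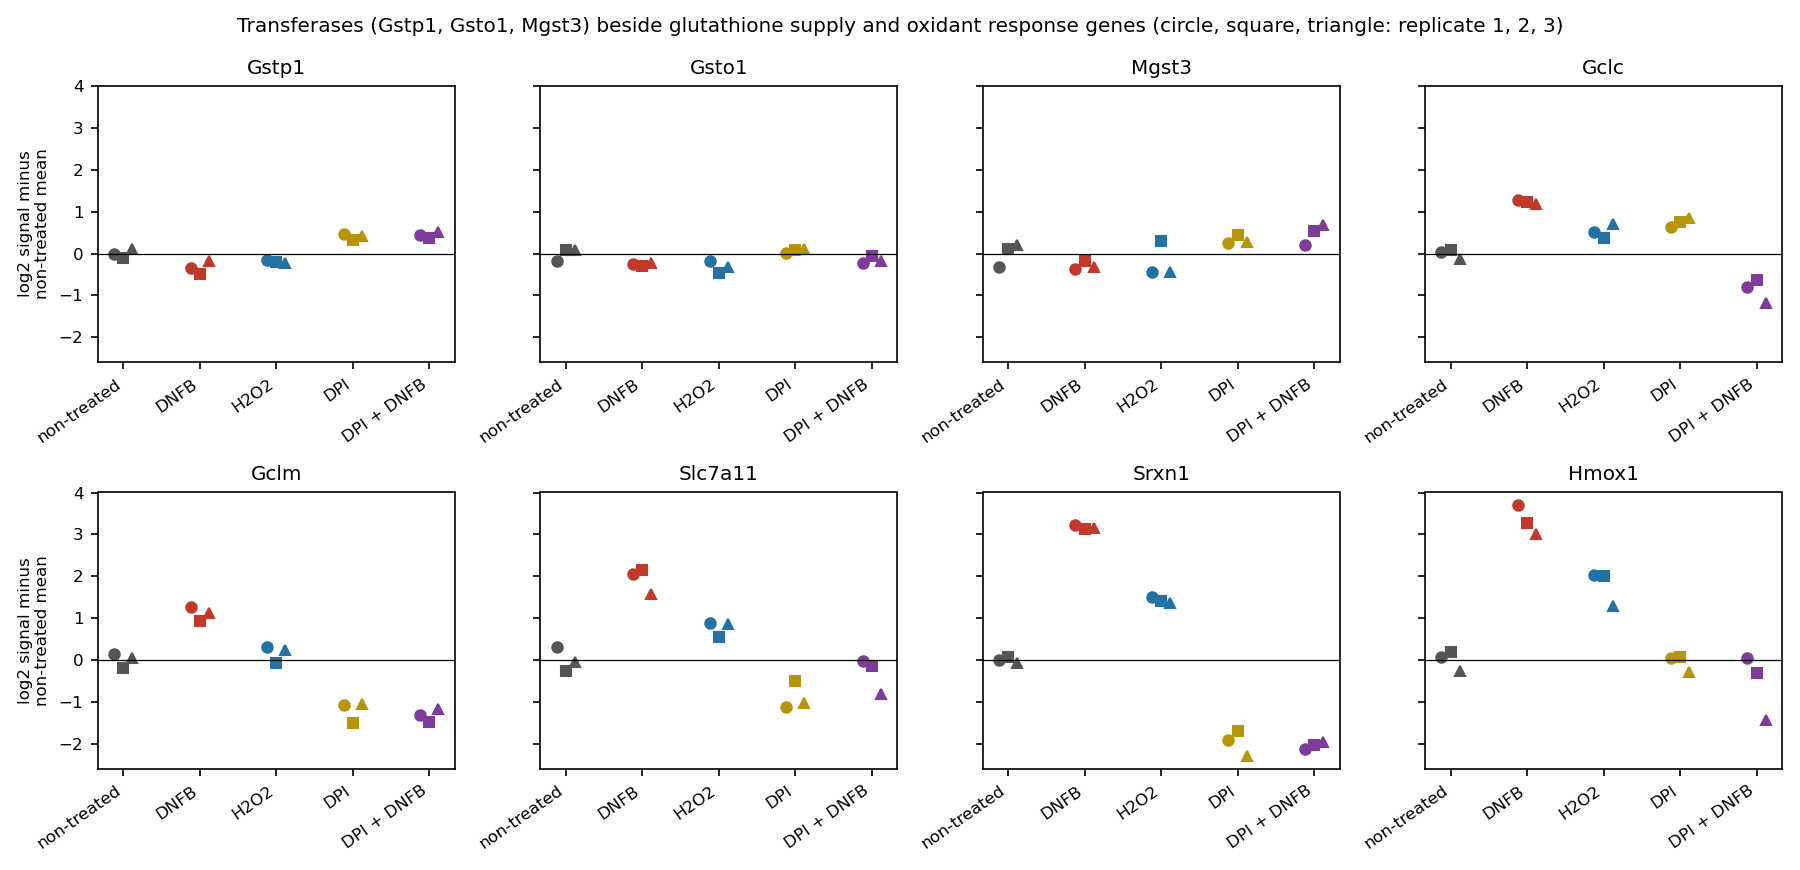
Log2(signal + 15) of 3 members and 5 genes of glutathione supply and the NRF2 response, each minus its mean in non-treated cells, with 1 point per array and a line at 0, the non-treated mean. Gstp1 stays within a narrow band, lowest with DNFB and highest in the groups with DPI, while Gclm and Srxn1 are highest with DNFB and lowest in the groups with DPI.

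The export step held 17 listed genes, of which 8 were tested. With DNFB 1 rose and 2 fell, where 24.4% of all genes were called. Abcc1, the pump for glutathione conjugates, rose 1.33-fold, from 4726 ± 171.9 to 6308 ± 149.4 (SD, n = 3 each; limma adjusted p = 0.00424). The genes that fell were Abcc4 (-0.77 on the log2 scale) and Lap3 (-0.39). Abcc1 instead fell with H2O2 (-0.53), and it was lower in DPI + DNFB than in DNFB (-0.77). Its level was thus highest on the DNFB arrays, where Gstp1 was lowest.

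Gstp1, Gsto1 and Mgst3 differed most over the 5 groups among the members, with moderated F of 24.9, 5.54 and 5.30. Genes whose log2 signal ran most like Gstp1 over the 15 arrays were Ndufb3, a subunit of respiratory complex I (Pearson r = 0.975), Cryl1, an enzyme of the uronate cycle (0.971), and Acot13, a mitochondrial thioesterase (0.968). Ndufb3 had group means of 4286 in non-treated cells, 3421 with DNFB, 4192 with H2O2, 6444 with DPI and 6523 with DPI + DNFB, the same order as Gstp1 at the low and the high end. For Gsto1 the closest were Mbd4 (0.902), Scp2 (0.886) and Nucks1 (0.88), and for Mgst3 Grn (0.91), Rnpep (0.893) and Ift46 (0.892). These are descriptions over arrays that share treatments, scaling and RNA quality, and were picked as the highest of all genes tested.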

How the data were processed

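The authors deposited intensity on a linear scale, 1 signal per probe set, made with MAS5 in Affymetrix Expression Console, per the submitters' processing notes, with versions not given. RNA was extracted and biotin-labelled cRNA was hybridised to 15 arrays, 3 a group, per the labels' protocols. The number of arrays limits the precision.

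Deposited 2% trimmed means were 500 on 9 arrays and 250 on 6, the latter being DNFB replicate 3 and every group's replicate 1, so each array was rescaled to 500 and transformed to log2 after adding 15, near the 20th percentile (19.9% of values lay below it). Of 45101 probe sets, 64 controls were left out, and 34945 had 1 gene symbol, 932 several and 9160 none. Symbols came from the platform annotation, updated through the RefSeq gene table of GRCm38.p6. Probe sets with a mean log2 signal at or above the 40th percentile (6.22) were kept, and the one of highest mean stood for its gene.

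Group means over all 15 arrays were fitted with limma 3.58.1 in R 4.3.3 (eBayes with trend, 10 residual degrees of freedom). The 7 comparisons were adjusted by Benjamini-Hochberg over 12701 genes each, at 0.05. Adjusted p-values in the text are from limma. The steps were tested on simulated data. Named were all members, up to 4 called genes of each list and comparison with the widest difference, and the 3 genes most like each of the 3 members with the highest F. Nqo1 was named after its value was seen, and Ggct was named with DNFB outside this rule, as the gene of its list that fell. Marker lists for dendritic cells, keratinocytes, fibroblasts, melanocytes, T cells and mast cells were summed per array. Members and lists were chosen with earlier results of these data known. Alternatives covered the pseudocount, filter, normalization, probe set rule, variance model, array weights, blocks, subsets of arrays and leaving out each array.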

Additional observations from a re-analysis of the deposited data

Results flagged for a closer look

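The effect of DNFB on Gstp1 differed between cells with and without DPI by the test of that difference. The value was 0.38 on the log2 scale (limma adjusted p = 0.0464), higher with DPI, against a median of 0.139 over all genes. The call was lost under 22 of 34 alternatives, 11 of them leaving out 1 array, and the value ranged from 0.10 to 0.71.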

How the results depend on the processing

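The counts of members called depended on the scaling. With values as deposited, which leave the 2 scaling targets in the spread, 0 members were called against non-treated cells for DNFB, H2O2 and DPI, where 210, 176 and 214 of 12698 genes were called, 0 in DPI + DNFB against DNFB, and 0 for the interaction. Median centring gave 0 with DNFB, 1 in DPI + DNFB against DPI and 1 against DNFB. Of all 12701 genes it called 2576, 3529 and 5429 there. Quantile normalization gave 2 with DNFB and 2 with H2O2, where 3125 and 3423 of 12699 genes were called. Cyclic loess gave 2 with H2O2 and 3 with DPI, where 3490 and 3777 of 12701 genes were called. The mean of a gene's probe sets gave 2 with DNFB and 1 in DPI + DNFB against DPI, beside 2779 and 2994 of all genes. Array weights gave 2 with DNFB, beside 3850 of all genes. Arrays of the 250 target alone gave 0 with DNFB, H2O2 and DPI and 1 in DPI + DNFB against DNFB, and those of the 500 target 0 with DNFB and DPI and 1 in DPI + DNFB against DNFB, with fewer arrays in each and often 1 array in a group, which is assumed to vary like the others. The actin ratio as a covariate gave 1 in DPI + DNFB against DNFB, where 2904 of 12701 genes were called. The interaction fell to 0 called members under median centring, cyclic loess, no filter, all probe sets, eBayes without trend, only the groups compared, either target, the covariate, and DPI + DNFB replicate 2 alone. Apart from fewer arrays or more features tested, the cause was not tested. Leaving out each array gave 0 to 2 with DNFB, 0 to 1 with H2O2, 1 to 2 with DPI, 0 in DPI + DNFB against DPI, 2 to 3 in DPI + DNFB against DNFB, 0 in DNFB against H2O2, and 0 to 1 for the interaction. Over single members and alternatives 0 called values reversed, 43 calls were lost and 20 gained. Of 34 alternatives, Gstp1 kept its call under 33 in DPI + DNFB against DNFB, 31 with DPI and 28 with DNFB, Mgst3 under 29 and Gsto1 under 28. Many of the 34 left the arrays of the compared groups as they were, as when an array of another group was left out. A kept call there says little about stability. Gsto1 kept its call in 11 of 15 fits without 1 array, and each loss came from leaving out a non-treated or H2O2 array.

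The replicate number as a block gave 2 called members with DPI, adding Mgst2 (adjusted p = 0.0371), and added Gstm5 in DPI + DNFB against DNFB (adjusted p = 0.0463). Same-numbered arrays correlated at r = -0.003 to 0.144 in their deviations from group means, above 0.1 in 9 of 30 pairs. Among arrays of other groups, 15 of 15 arrays correlated best with one of their own number. The labels do not say what a number shares. The main test left the numbers out, so it ignores any pairing they mark. With the block 3482 of 12701 genes were called with DNFB, in place of 3105.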

Other observations

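Of the 11 tested transferase relatives, 3 passed in DPI + DNFB against DNFB, where 44.2% of all genes passed, so the count does not stand out. All 3 are genes of lipid mediator synthesis, and they moved in both directions. Hpgds, the prostaglandin D synthase, read 1401 ± 163.9 in non-treated cells, 748.1 ± 57.8 with DPI and 545.3 ± 250.6 with DPI + DNFB (SD, n = 3 each), and was lower in DPI + DNFB than in DNFB by -1.30 on the log2 scale. Ltc4s, leukotriene C4 synthase, differed in the other direction, from 271.4 ± 62.9 with DNFB to 571.7 ± 80.3 with DPI + DNFB (1.05 on the log2 scale), and Alox5ap, which presents arachidonate to 5-lipoxygenase, was higher there by 0.42. These calls are from limma, and the 3 genes were not tested as a group. The difference of the DNFB effect with DPI from that without was 1.20 for Ltc4s (limma adjusted p = 0.00274). For Alox5ap it was 0.43 (adjusted p = 0.0401). Of the 11 relatives 4 were called positive in that difference and 0 negative, against 17.3% and 13.8% of all genes. The others were Gstm3 of the mu class (1.19, limma adjusted p = 0.0404) and Gstcd (0.82, adjusted p = 0.00242). On 2 of the 3 DPI + DNFB arrays the actin 3′ to 5′ ratio was above that of the other 12. The Gapdh ratio was above theirs on all 3. The part of RNA quality in these values was not tested.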
